A study of Homo sapiens with 6 samples.

Results

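The genes of the cytosolic ribosome were examined for chromatin occupancy by 2 subunits of the SWI/SNF complex in a pair of prostate cancer cell lines. Members were the protein-coding genes on autosomes, in the RefSeq annotation of GRCh38, whose symbol is RPL or RPS with a number and optionally A, X or L with digits, together with RPLP0 to RPLP2 and RPSA. The kinases of the RPS6K family were left out. This gave 76 of 19126 autosomal coding genes: 40 of the large subunit, 30 of the small subunit (RPSA among them), the 3 acidic stalk genes and 3 paralogs with L in the symbol (RPL22L1, RPL26L1 and RPL7L1). A peak was counted for a gene when its summit, the position of highest signal, lay within the gene span extended by 2 kb on each side.

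The peaks come from ChIP-seq of BRG1, the ATPase encoded by SMARCA4, and of SMARCC2, a core scaffold subunit of the same complex. LNCaP is an androgen-responsive human prostate adenocarcinoma line grown here without a stated drug, and MR49F is its enzalutamide-resistant derivative, kept in 10 µM enzalutamide, an androgen receptor antagonist. Line and drug are therefore joined and cannot be told apart. Chromatin of each line was fixed with 2 mM disuccinimidyl glutarate for 45 min and 1% formaldehyde for 10 min, and each precipitation used 4 µg of antibody. There was 1 library for each line and antibody, so no value has a replicate error and no test was made.

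Ribosomal proteins are made in large and balanced amounts in growing cells, and their genes are among the most heavily transcribed by RNA polymerase II. Their messenger RNAs begin with a C followed by a run of pyrimidines, the 5′ terminal oligopyrimidine (TOP) tract, through which mTOR signalling controls their translation. Their promoters are compact and rich in C and G, and many of the genes carry small nucleolar RNAs in their introns. SWI/SNF slides or evicts nucleosomes, and its subunits are found at many active promoters and enhancers.

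The peak lists held 36174 BRG1 and 25706 SMARCC2 peaks in LNCaP and 44308 BRG1 and 47615 SMARCC2 peaks in MR49F. Their median widths were 743, 659, 820 and 753 bp, in the list order used throughout: BRG1 then SMARCC2 in LNCaP, followed by the same pair in MR49F. They carry no read totals, so the length of each list is given in place of depth, and each count of members is set beside the same count over all genes. The luminal prostate marker genes KLK3, HOXB13, FOLH1 and TMPRSS2 had a peak in the 4 lists, apart from KLK3, which lacked one in LNCaP SMARCC2.

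The start regions of these genes are shown first, since BRG1 summits at starts, described below, lie mostly just inside them. RefSeq promoter windows on GRCh38.p14 (250 bp before to 50 bp after a listed start) were found for 61 of the 76 members, as 75 windows. The stretch from 110 bp before the start to 10 bp after it is printed for the 3 stalk genes and RPSA, for RPS10, RPS28 and RPL28, called in MR49F and not in LNCaP, for RPS9 and RPS18, called nowhere, for RPL22L1, the member with the strongest peaks, and for RPL15 as a listed start without the tract. Capitals mark the TOP tract, defined as a C within 5 bp of the start followed by at least 4 pyrimidines on the gene's strand.
RPLP0 (chr12:120201102-120201221, minus strand): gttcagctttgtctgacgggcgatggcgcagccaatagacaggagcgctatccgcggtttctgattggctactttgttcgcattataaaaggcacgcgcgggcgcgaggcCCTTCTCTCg
RPLP1 (chr15:69452708-69452827, plus strand): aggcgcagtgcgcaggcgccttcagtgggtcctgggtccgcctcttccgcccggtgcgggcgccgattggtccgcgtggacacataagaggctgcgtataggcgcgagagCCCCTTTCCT
RPLP2 (chr11:809857-809976, plus strand): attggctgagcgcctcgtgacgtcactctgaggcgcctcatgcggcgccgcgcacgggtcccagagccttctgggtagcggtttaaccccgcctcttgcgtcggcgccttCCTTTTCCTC
RPSA (chr3:39406610-39406729, plus strand): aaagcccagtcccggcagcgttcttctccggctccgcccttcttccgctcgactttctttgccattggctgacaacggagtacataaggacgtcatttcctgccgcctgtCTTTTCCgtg
RPS10 (chr6:34426060-34426179, minus strand): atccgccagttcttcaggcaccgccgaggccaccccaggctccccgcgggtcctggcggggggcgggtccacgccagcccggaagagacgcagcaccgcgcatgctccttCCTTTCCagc
RPS28 (chr19:8321386-8321505, plus strand): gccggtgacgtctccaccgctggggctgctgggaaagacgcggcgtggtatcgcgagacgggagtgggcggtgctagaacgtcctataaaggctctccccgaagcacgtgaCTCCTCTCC
RPL28 (chr19:55385822-55385941, plus strand): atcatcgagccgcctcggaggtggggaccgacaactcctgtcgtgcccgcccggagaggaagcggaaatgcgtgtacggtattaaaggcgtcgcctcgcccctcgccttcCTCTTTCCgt
RPS9 (chr19:54200748-54200867, plus strand): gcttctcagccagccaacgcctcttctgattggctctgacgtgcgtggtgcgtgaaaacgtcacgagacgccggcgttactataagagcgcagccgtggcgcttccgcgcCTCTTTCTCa
RPS18 (chr6:33271965-33272084, plus strand): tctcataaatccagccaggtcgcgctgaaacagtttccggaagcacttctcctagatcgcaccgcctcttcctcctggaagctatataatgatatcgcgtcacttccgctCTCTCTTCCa
RPL22L1 (chr3:170870186-170870305, minus strand): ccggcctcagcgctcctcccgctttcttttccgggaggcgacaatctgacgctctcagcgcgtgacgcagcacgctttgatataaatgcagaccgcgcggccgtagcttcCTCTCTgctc
RPL15 (chr3:23916435-23916554, plus strand): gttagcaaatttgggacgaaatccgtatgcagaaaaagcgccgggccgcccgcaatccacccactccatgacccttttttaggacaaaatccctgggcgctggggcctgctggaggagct

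A TOP tract stood at the start in 73.3% of member windows, against 21.9% of the 21156 windows of all 15101 autosomal coding genes with a listed start. By gene, 51 of 61 members (83.6%) and 28.0% of all genes had the tract. The base at a listed start was C in 47 of 61 members (77.0%), against 14.9% of all genes. Of the strings searched on both strands over the whole 300 bp window, the ETS core CCGGAAG was present in 33.3% of member windows and 12.9% of all windows. TCTCGCGA, a motif bound by ZBTB33-type factors, was in 16.0% and 1.503%, and the YY1 core AAGATGGC in 9.33% and 3.50%. The GC box GGGCGG (50.7% and 56.6%), the E-box CACGTG (6.67% and 8.25%), TATAAA (8.00% and 9.51%) and the NRF1 string GCATGCGC (4.00% and 3.66%) were about as frequent in members as elsewhere. None of these strings contains another, but the reverse complement of the ETS core holds a C followed by 4 pyrimidines and can count as a tract when it falls at the start. The median share of G and C was 59.3% in member windows and 62.7% in all windows. A match is a description of letters and not a bound site.

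Most ribosomal protein genes carried peaks of both subunits, and SMARCC2 in LNCaP was the subunit most often missing. In LNCaP, a BRG1 peak was found at 63 of 76 members (82.9%, Wilson 95% interval 72.9 to 89.7), against 57.6% of all genes. SMARCC2 was called at 43 members in LNCaP (56.6%, interval 45.4 to 67.1), against 45.3% of all genes. In MR49F, BRG1 was called at 70 members (92.1%, interval 83.8 to 96.3; all genes 67.1%) and SMARCC2 at 66 (86.8%, interval 77.5 to 92.7; all genes 64.7%). The intervals cover counting error only. Members had 94, 58, 124 and 109 peaks in the 4 lists, or 1.24, 0.763, 1.63 and 1.43 per member, whereas the average autosomal coding gene had 1.43, 1.02, 1.71 and 1.76. Thus a member was more often called, yet held fewer peaks than the average gene in each list. Gene length was not held alike in these counts. Of the members 65 were shorter than 10 kb, against 5328 of 19126 genes.

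**Figure D1:**
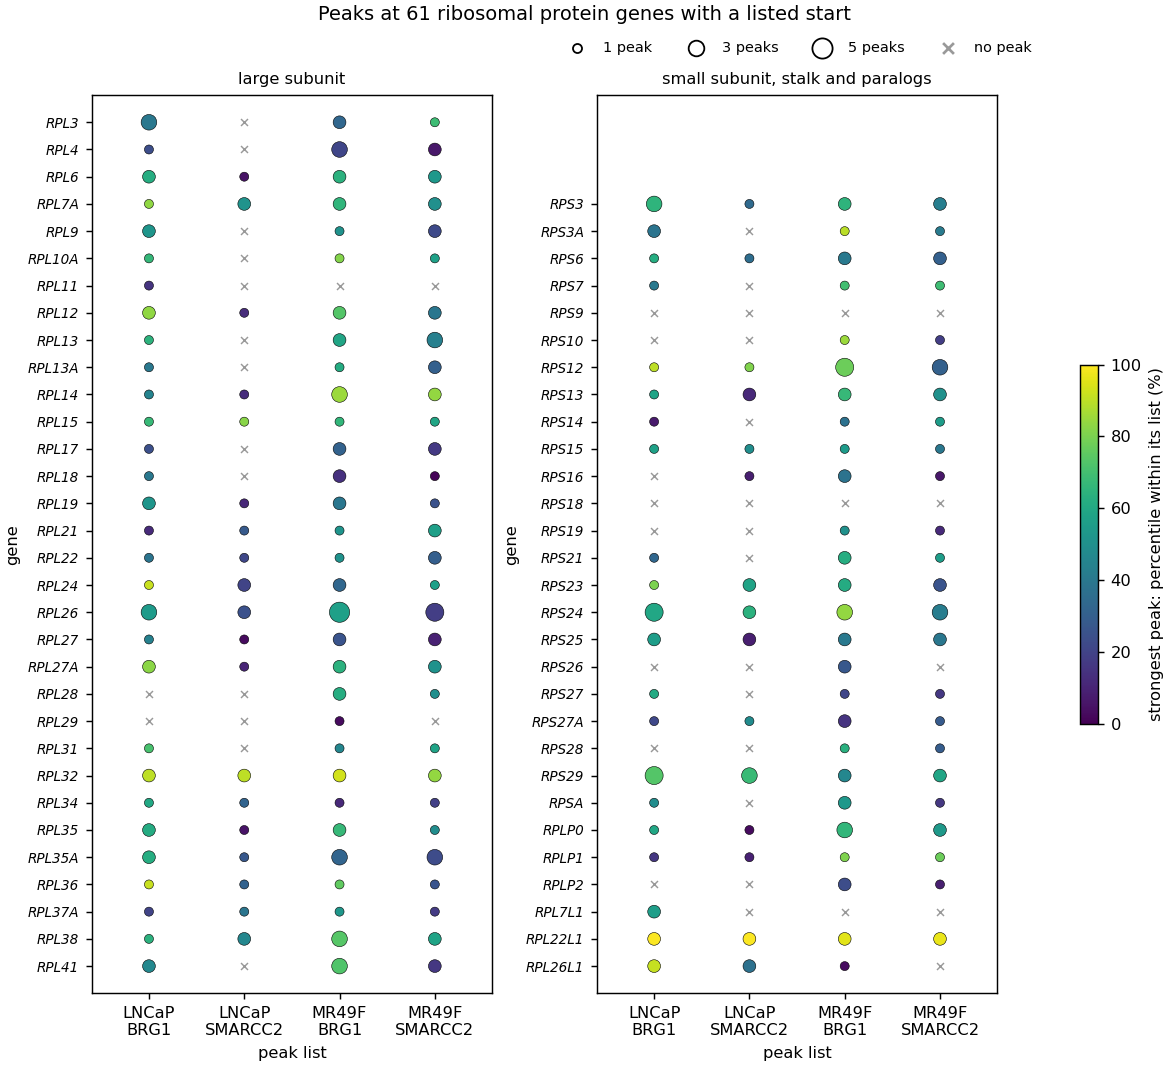
Peaks at each of the 61 ribosomal protein genes with a listed start (rows) in the 4 peak lists (columns), with the large subunit on the left and the small subunit, stalk and paralogs on the right. Circle area stands for the number of peaks, colour for the percentile of the gene's strongest peak among all peaks of that list, and a cross for no peak. RPL22L1 is at the top of the colour scale in all 4 columns, and crosses are most frequent in the LNCaP SMARCC2 column.

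The higher share was lost among the strongest peaks, and in LNCaP SMARCC2 already at a milder threshold. With only the 10000 strongest peaks of a list, the member share was below the background in every list. In LNCaP, 13 members (17.1%) had such a BRG1 peak, against 24.1% of all genes, and 6 (7.89%) a SMARCC2 peak, against 22.4%. In MR49F the numbers were 13 (17.1%) against 24.4% and 5 (6.58%) against 20.0%. Peaks with a −log10 q of at least 5 gave 54 members (71.1%) against 47.0% for LNCaP BRG1, but 21 (27.6%) against 35.6% for LNCaP SMARCC2. The 2 MR49F lists stayed above the background at that threshold, with 64 members (84.2%) against 61.0% and 58 (76.3%) against 59.2%.

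Gene length was then held alike, since ribosomal protein genes are short and a short gene catches fewer peaks. Within 1 kb of a listed start, a summit was found at 46 of 61 members (75.4%) with BRG1 and 25 (41.0%) with SMARCC2 in LNCaP. In MR49F these numbers were 53 (86.9%) and 44 (72.1%). The same share over all genes with a listed start was 40.8%, 28.9%, 53.9% and 50.8%. In LNCaP SMARCC2 the order turned with a window of 500 bp (14.8% of members, 20.9% of all genes) and with a −log10 q of at least 5 (18.03%, 19.01%), and with the 10000 strongest peaks it turned in every list but LNCaP BRG1 (11.5%, 10.1%). Among genes shorter than 10 kb, 54 of 65 members (83.1%) had a LNCaP BRG1 peak in the extended span, compared with 34.0% of 5328 such genes. For LNCaP SMARCC2 these shares were 55.4% and 20.5%, for MR49F BRG1 92.3% and 44.0%, and for MR49F SMARCC2 87.7% and 39.8%. The genes of the mitochondrial ribosome, which serve the ribosome inside mitochondria, had start peaks at 56.1%, 28.8%, 71.2% and 62.1% of 66 genes with a listed start. Ribosome biogenesis genes shorter than 10 kb, only 9 in number, had higher shares over the span than members, with 88.9% in both LNCaP lists and 100% in both MR49F lists, but at starts their shares were 53.3%, 36.7%, 73.3% and 66.7% of 30 genes. Between 16.5% and 20.7% of the peaks at members had their summit nearer to the end of another gene, and counting only peaks nearest to a member left 59, 35, 67 and 63 members called.

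**Figure D2:**
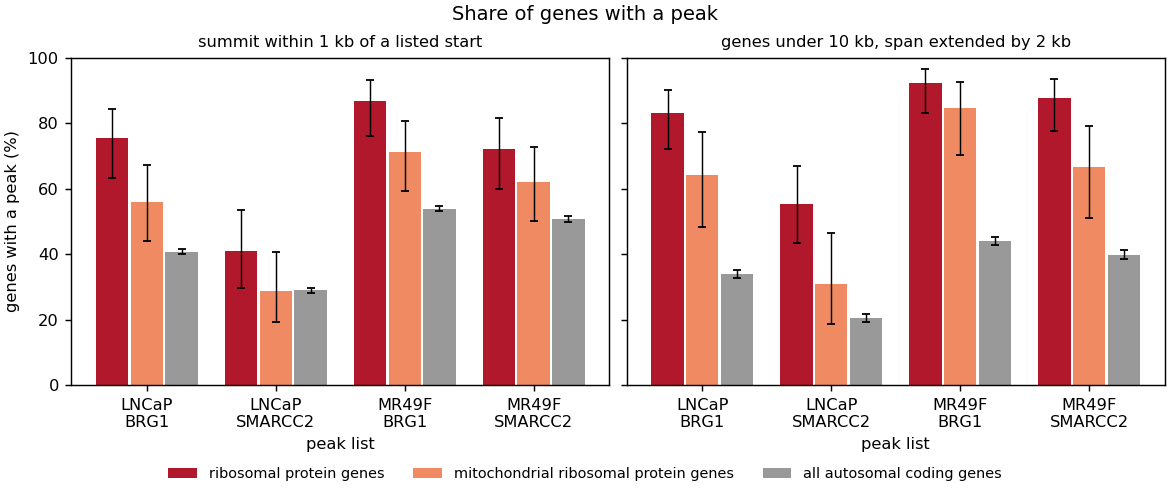
Share of genes with a peak (%) for ribosomal protein genes, mitochondrial ribosomal protein genes and all autosomal coding genes, within 1 kb of a listed start (left) and over the extended span of genes under 10 kb (right). Bars start at 0 and lines are Wilson 95% intervals. Of the 3 sets drawn, the ribosomal protein genes have the highest bar in each list, between 41.0% and 86.9% at starts.

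Most members were called in several lists. A peak in each of the 4 lists was present at 41 members (53.9%), against 39.8% of all genes, and 3 members had none, against 26.0% of all genes. A peak in 3 lists was found at 20 members (26.3%; 14.2% of all genes), and 18 of these lacked only LNCaP SMARCC2, the shortest list. Among the 18 were RPL3, RPL4, RPL9, RPL13 and RPL41 of the large subunit and RPS3A, RPS7, RPS14 and RPSA of the small subunit. How many of all genes lacked only that list was not counted. In LNCaP, 21 members (27.6%) had BRG1 without SMARCC2, against 15.2% of all genes, and RPS16 alone had SMARCC2 without BRG1. In MR49F 4 members (5.26%; 5.78% of all genes) had BRG1 without SMARCC2, among them RPL26L1, RPL29 and RPS26, and no member had the reverse (3.37% of all genes).

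By role, the large subunit was called more completely over the gene span in each list, but at starts only in LNCaP. Over the span, BRG1 was found at 38 of 40 large subunit genes in LNCaP and 39 in MR49F, and SMARCC2 at 25 and 38. For the 30 small subunit genes these numbers were 20 and 26 for BRG1 and 14 and 24 for SMARCC2. All 4 lists called 25 large and 13 small subunit genes, and the 3 genes without any peak were all of the small subunit. The Wilson 95% intervals for LNCaP BRG1 over the span were 83.5 to 98.6% for the large and 48.8 to 80.8% for the small subunit. In each other list the span intervals overlapped, at 47.0 to 75.8% and 30.2 to 63.9% for LNCaP SMARCC2. For MR49F they were 87.1 to 99.6% and 70.3 to 94.7% with BRG1, and 83.5 to 98.6% and 62.7 to 90.5% with SMARCC2. Within 1 kb of a listed start, LNCaP BRG1 was called at 84.4% of 32 large and 65.2% of 23 small subunit genes, and LNCaP SMARCC2 at 50.0% and 34.8%. In MR49F the order was the reverse, with 84.4% and 91.3% for BRG1 and 68.8% and 82.6% for SMARCC2. At starts the intervals of the large and the small subunit overlapped in every list. The 27 members with a small nucleolar RNA gene inside their span had peaks at 23, 14, 26 and 25 genes, and the 49 without one at 40, 29, 44 and 41.

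The acidic stalk recruits the GTPases of translation, and of its 3 genes only RPLP2 differed between lines in list membership. RPLP0, the anchor of the stalk, had 1 peak in each LNCaP list and 3 BRG1 and 2 SMARCC2 peaks in MR49F. Its strongest peak had a −log10 q of 7.92 (BRG1) and 2.45 (SMARCC2) in LNCaP and of 13.5 and 11.6 in MR49F. The BRG1 summits were 193 and 350 bp into the gene, while the strongest SMARCC2 summits were beyond the gene's other end, 6153 and 6187 bp from its first base. RPLP1 had 1 peak in every list, at 225, 881, 345 and 654 bp into the gene. Its −log10 q was 3.64 and 3.23 in LNCaP (percentiles 15.7 and 9.21 of those lists) and 20.1 and 21.7 in MR49F (percentiles 80.6 and 77.6). RPLP2 had no LNCaP peak, 2 BRG1 peaks and 1 SMARCC2 peak in MR49F, the strongest with a −log10 q of 5.38 and 3.94. RPSA, the small subunit protein also known as the laminin receptor precursor, had 1, 0, 2 and 1 peaks, with a −log10 q of 6.60 for LNCaP BRG1, 10.2 for MR49F BRG1 and 5.08 for MR49F SMARCC2.

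BRG1 summits at member starts lay mostly inside the gene. For each member with a start peak, the signed distance from the nearest listed start to the summit of its strongest start peak was taken, positive into the gene. The median was 255 bp for LNCaP BRG1 (46 members, middle 50% from 152 to 397 bp) and 345 bp for MR49F BRG1 (53 members, 228 to 456 bp), against 194 and 255 bp over all genes with a start peak. BRG1 summits were downstream of the start in 38 of 46 members (82.6%) in LNCaP and 46 of 53 (86.8%) in MR49F, against 64.9% and 71.0% of all genes. A summit within 100 bp of the start was found for 2 members in each BRG1 list and for none in the SMARCC2 lists. Over all genes with a start peak this share was 8.96%, 7.61%, 7.44% and 7.37% in the 4 lists, against 4.35%, 0%, 3.77% and 0% of members. RPL15, a core large subunit protein, was one of these, with BRG1 summits 53 and 66 bp and SMARCC2 summits 159 and 201 bp into the gene.

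SMARCC2 summits at members were spread to both sides of the start in LNCaP, while in MR49F they were downstream about as often as over all genes. In LNCaP, 14 of 25 (56.0%) were downstream and 11 (44.0%) more than 400 bp upstream, against 70.4% and 15.8% of all genes. The LNCaP SMARCC2 median of 211 bp had a middle 50% from -649 to 539 bp and was -492 bp (20 members) when genes with several listed starts were left out. In MR49F, 33 of 44 (75%) were downstream and 9 (20.5%) more than 400 bp upstream, against 74.1% and 14.3%, with a median of 350 bp against 277 bp. Where both subunits had a start peak in the same line, their summits were a median of 364 bp apart in LNCaP (23 members; 157 bp over all genes) and 203 bp in MR49F (42 members; 129 bp over all genes). BRG1 was downstream and SMARCC2 upstream at 7 of 23 members in LNCaP (30.4%; 10.4% of all genes) and 10 of 42 in MR49F (23.8%; 7.88%). Between lines, the same gene's BRG1 summits were a median of 178 bp apart (41 members; 165 bp over all genes) and its SMARCC2 summits 461 bp (23 members; 148 bp).

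**Figure D3:**
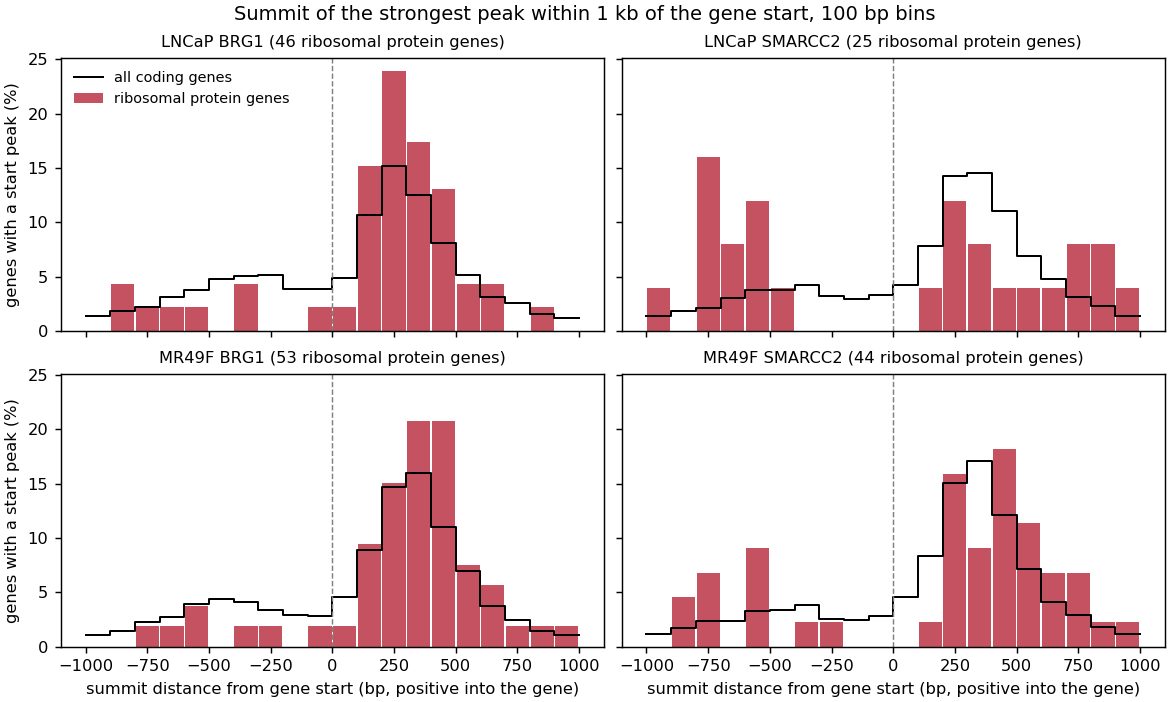
Distance from the gene start to the summit of the strongest start peak (bp, 100 bp bins, positive into the gene) as a share of genes with a start peak (%), one panel per list. Red bars are ribosomal protein genes and the black line is all coding genes. BRG1 bars pile up between 100 and 500 bp downstream, and LNCaP SMARCC2 bars form one group upstream and one downstream with none within 100 bp of the start.

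Peaks at member starts were of middling or low rank by −log10 q, and in each list but LNCaP SMARCC2 their median width was above that over all genes. A peak's percentile was taken among all peaks of its own list by −log10 q. The median percentile of the strongest start peak was 50.6 for LNCaP BRG1 and 50.3 for MR49F BRG1, against 52.5 and 56.2 over all genes with a start peak. For SMARCC2 it was 27.2 in LNCaP and 30.2 in MR49F, against 43.0 and 50.1. Ranked by width instead, the member medians were 77.5 and 79.9 for BRG1 (all genes 58.1 and 66.7), and 50.9 and 79.9 for SMARCC2 (all genes 52.8 and 66.8). In base pairs, the median width of member start peaks was 1198, 667, 1455 and 1259 bp in the 4 lists, against 844, 684, 1098 and 975 bp. The median fold enrichment of these peaks was 3.76, 3.48, 4.05 and 4.14. By fold the MR49F BRG1 median percentile was 32.7, against 52.1 over all genes.

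**Figure D4:**
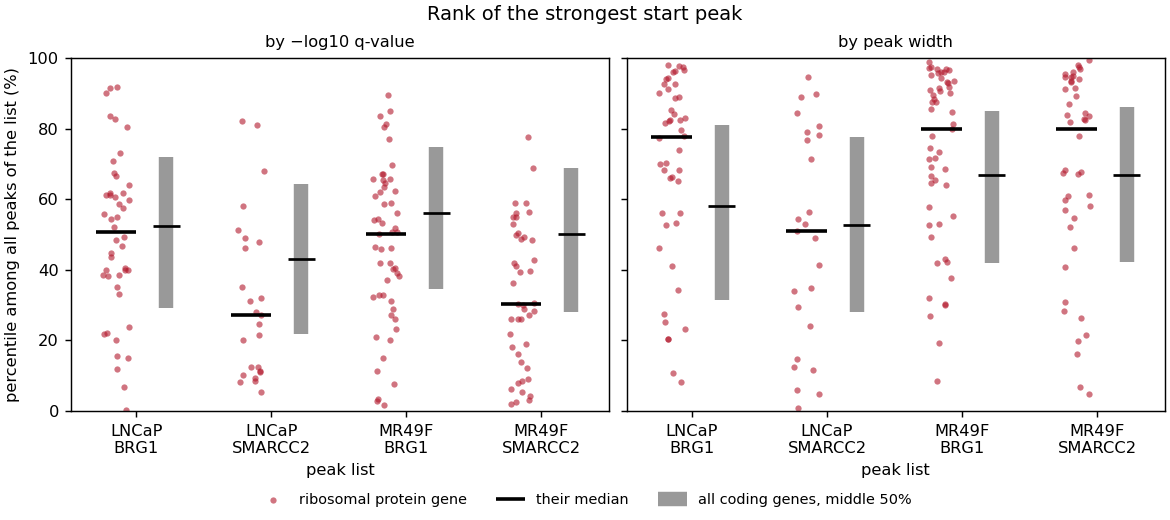
Percentile of each ribosomal protein gene's strongest start peak among all peaks of its list (%), by −log10 q-value (left) and by peak width (right). Points are genes, black bars their medians and grey bars the middle 50% of all coding genes with a start peak. Medians by −log10 q are 50.6, 27.2, 50.3 and 30.2, and by width 77.5, 50.9, 79.9 and 79.9.

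The 5 members with the highest mean percentile over the lists were RPL22L1, RPL32, RPS12, RPL15 and RPL5, and in the first 2 the strongest peak was kilobases away from the gene's first base. RPL22L1, a paralog of the large subunit protein RPL22, had the highest −log10 q of the members in every list, at 44.9 (BRG1) and 69.3 (SMARCC2) in LNCaP and 44.8 and 74.2 in MR49F. The next highest values were 17.9 (RPL24), 19.2 (RPL32), 36.0 (RPL32) and 30.1 (RPL7). The RPL22L1 summits were 2466, 2474, 2502 and 2475 bp from the gene's first base, within its span on chromosome 3. Its start peaks, in the 3 lists other than LNCaP SMARCC2, were separate from these. RPL32 had 2 peaks in each list, the strongest 3812, 3903, 3823 and 3835 bp from its first base, with percentiles of 89.9, 90.1, 93.3 and 83.7. RPS12 followed with percentiles of 90.01, 81.1, 77.6 and 30.5, and its strongest summits were upstream, at -803, -698, -1075 and -823 bp. RPL15 had −log10 q values of 9.10, 14.01, 13.5 and 13.1. RPL5, which binds 5S ribosomal RNA together with RPL11, had 1 peak per list with percentiles of 88.6, 50.3, 81.8 and 51.3, whereas RPL11 itself had a single weak BRG1 peak in LNCaP (−log10 q of 3.59).

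Other members were marked by many peaks. RPL26, a large subunit protein near the exit of the peptide tunnel, had 3, 2, 5 and 4 peaks. RPS24 had 4, 2, 3 and 3, and its strongest summit was 14492 and 15044 bp into the gene in LNCaP and 456 and 457 bp in MR49F. RPS29, a small zinc-binding protein of the small subunit, had 4, 3, 2 and 2 peaks, the strongest between 185 and 320 bp into the gene in all lists. RPL23A had 3, 1, 2 and 3 peaks and RPL35A had 2, 1, 3 and 3. A longer gene gives a wider window, and RPS29 (27723 bp) and RPS24 (22944 bp) were the longest members. RPL26, RPL23A and RPL35A were 5678, 4375 and 6421 bp long.

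Among the members called in no list, RPS18 (chr6:33272075-33276511) and RPS9 (chr19:54200858-54207647) also had no peak within 50 kb of the gene. Of 34 coding genes within 500 kb of RPS18, 3, 2, 4 and 4 had a peak, and of 34 around RPS9 these numbers were 2, 0, 2 and 3. Both genes thus lie in stretches where few genes were called. They carry TOP tracts like the called members. The lists hold 11, 10, 17 and 21 peaks on alternate copies of chromosome regions, of which 0, 0, 2 and 0 are alternates of chromosome 6 and 0, 1, 0 and 0 of chromosome 19. Whether reads of these 2 genes were placed on alternate copies was not tested.

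Between lines, differences in peak number at members went mostly towards MR49F, as they did over all genes. Both antibodies gave a higher peak count in MR49F at 22 members (28.9%), against 24.7% of all genes. The reverse was found at 2 members, RPL26L1 and RPS29, against 3.62% of all genes. At 8 members (10.5%; 7.49% of all genes) the antibodies went opposite ways, RPL3, RPL9, RPL23A, RPL24, RPS3, RPS3A and RPS24 among them. BRG1 was called in MR49F and not in LNCaP at 10 members (13.2%; 14.1% of all genes) and SMARCC2 at 24 (31.6%; 21.9%). The lists differ in length, and the SMARCC2 lists most of all.

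Only MR49F lists called 6 members with both subunits (RPL28, RPLP2, RPS2, RPS10, RPS19 and RPS28), which is 7.89% of members and 9.03% of all genes. The reverse, a peak in both LNCaP lists and no MR49F list, held for no member and for only 0.941% of all genes. RPS10, which sits at the messenger RNA entry channel, had a BRG1 peak with a −log10 q of 23.4 at 400 bp into the gene and a SMARCC2 peak of 5.28 at 269 bp. RPS28 had 12.8 and 6.89, at 510 and 742 bp. For RPL28 the values were 12.4 and 10.6, at 527 and 715 bp. RPS2 had 1 BRG1 peak of 20.0, which was 6226 bp wide, and 3 SMARCC2 peaks, the strongest 9.89. Once overlapping peaks were joined, as below, RPS2 had no region of both subunits in MR49F and neither in LNCaP. The region of its strongest peaks therefore also held a LNCaP peak, whose summit lay outside the extended span. RPS19, a gene mutated in Diamond-Blackfan anaemia, had 9.50 and 4.48. Local background near these genes was solved from fold and p-value in 10 Mb windows and set relative to all autosomes of the same list. The summit pile-up solved with it was a whole number for 100% of peaks in both MR49F lists. In LNCaP this held for only 8.85% (BRG1) and 8.84% (SMARCC2), so the solution is less certain there. The solved background was 0.768 to 0.930 times as high in MR49F as in LNCaP for BRG1 and 0.855 to 1.02 times for SMARCC2. Over all 76 members this ratio ran from 0.500 to 1.23 (median 0.976) and from 0.572 to 1.38 (median 1.01). Its part in the calls was not tested.

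Joining peaks of the 4 lists that shared at least 1 bp gave 137 regions at members, against 41702 at all autosomal coding genes. All 4 lists shared 44 of them (32.1%; 25.7% at all genes), and 25 (18.2%; 9.53%) had every list but LNCaP SMARCC2. Of all regions of the merged lists, at genes or not, 22.7% had a peak in each list. On that broader background the first share was lower at members when regions were joined by summits within 200 bp (4.92% against 11.7%) or limited to a −log10 q of at least 5 (13.8% against 19.5%). MR49F BRG1 alone had 20 regions (14.6%; 8.77%), LNCaP BRG1 alone 11 (8.03%; 9.81%) and MR49F SMARCC2 alone 5 (3.65%; 10.2%).

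**Figure D5:**
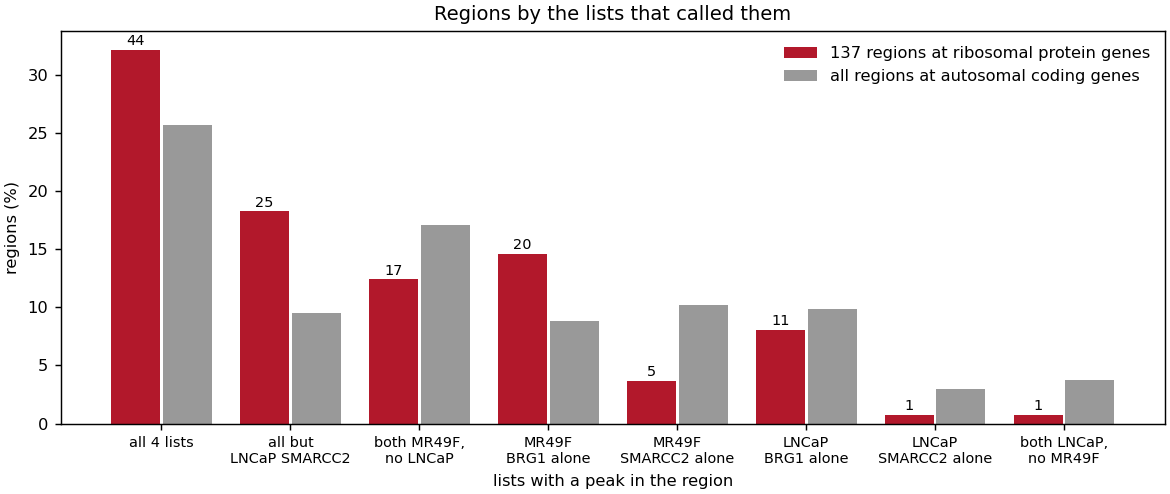
Share of regions (%) by the combination of lists that called them, main combinations only, over the 137 regions at ribosomal protein genes (red, with counts above the bars) and all regions at autosomal coding genes (grey). The red bar exceeds the grey one for all 4 lists, for all but LNCaP SMARCC2 and for MR49F BRG1 alone.

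Both subunits in MR49F and neither in LNCaP marked 17 regions (12.4%; 17.1% at all genes) at 16 members (21.1%; 27.9% of all genes). Some of these stood beside a start peak shared by the lines. RPL14 had a start peak in LNCaP, whereas its strongest MR49F peaks formed a region at its other end (chr3:40467845-40468611) with a −log10 q of 23.4 for BRG1 and 27.4 for SMARCC2. RPL38 (chr17:74207946-74209474) had such a region 5032 bp from its start, with 16.5 and 12.8, and RPL41 (chr12:56118451-56119626) one beyond its end, at 2405 bp, with 15.9 and 5.02. RPL35A had one beyond its end, at 7209 bp, with 5.64 and 5.97, and RPS24 one inside the gene at 3801 bp, with 3.77 and 3.71. Regions centred within 1 kb of a listed start belonged to RPL13 (11.4 and 9.34), RPS16 (7.40 and 3.55) and RPS12 (3.38 and 6.87), besides 4 of the 6 genes above and 1 of the 2 regions of RPL17 (6.32 and 2.75). RPL8 (9.44 and 6.37) and RPL7 (6.12 and 6.48) had regions inside the gene. RPL13 had the lowest background ratio of all members, 0.500 for BRG1 and 0.572 for SMARCC2.

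Both subunits in LNCaP and neither in MR49F marked 1 region, at 1 member (1.32%; 6.96% of all genes). It belonged to RPL26L1 (chr5:172955267-172958241), a paralog of RPL26, with a −log10 q of 17.2 for BRG1 and 5.29 for SMARCC2. In MR49F the gene had a BRG1 peak of 2.74, at 164 bp from a listed start, and no SMARCC2 peak.

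Members with and without the tract at the start were both mostly called with BRG1. Of the 51 members with a TOP tract, 40, 22, 44 and 38 had a start peak in the 4 lists, and of the 10 without one 6, 3, 9 and 6 did. A list of 21 translation factors and related genes, many of them known for the same kind of tract, had a peak in all 4 lists at 7 genes (33.3%; 39.8% of all genes) and in none at 2 (EEF1D and EIF3K). Among them, both antibodies gave more peaks in MR49F at 8 genes (38.1%; 24.7% of all genes) and more in LNCaP at 1. Of the 13 with a listed start, 53.8%, 23.1%, 84.6% and 69.2% had a start peak, so in MR49F they were close to members (86.9% and 72.1%). Their BRG1 start summits had a median of 312 bp in LNCaP (7 genes) and 335 bp in MR49F (11 genes), also inside the gene. The median widths of these BRG1 peaks were 1018 and 1682 bp, against 1198 and 1455 bp at members. EEF1A1, the main elongation factor, had 1, 0, 1 and 2 peaks and EEF2 had 1, 1, 2 and 2. Of 35 autosomal ribosome biogenesis genes, 15 (42.9%) had a peak in all 4 lists, 10 (28.6%) had a higher count in MR49F by both antibodies and 4 (11.4%; 3.62% of all genes) in LNCaP, and RRN3, an initiation factor of RNA polymerase I, had none.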

How the data were processed

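Chromatin of LNCaP and MR49F was profiled by ChIP-seq with antibodies to BRG1 and SMARCC2, 1 library for each. The series has 6 samples, 4 of them with a list of peaks, and the input of each line was not analysed here. Per the submitters' processing notes, BWA 0.7.10, SAMtools, MACS2 2.1.0 and the build hg38 were used, with no role or order given. For the control, duplicates and read filters, the settings were not given in the sources used here. The authors deposited 1 list for each library, and each deposited peak has a fold enrichment, a −log10 p-value and a −log10 q-value from the authors' caller, and a display score that was not used. These values are the authors' own and were used inside a list to rank or filter its peaks. Fold and p-value also gave the local background, whose ratio sets MR49F against LNCaP. Where −log10 q values of a gene are printed for several lists, they were not scaled between lists.

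Genes, their spans and promoter windows came from RefSeq tables of GRCh38.p14, the same build as hg38. Summits were assigned to gene spans extended by 2 kb, or to listed starts within 1 kb, which are known for 61 members. The distance is to the nearest listed start, and the strongest peak is the one with the highest −log10 q. Local background was solved from fold and p-value under a Poisson model. Computations used Python 3.11.15, NumPy 2.4.6, pandas 2.3.3 and SciPy 1.17.1, with plots by matplotlib 3.10.9, and were tested on simulated peaks. With 1 library for each line and antibody no test was possible, so shares are set beside all 19126 autosomal coding genes. A gene without a peak did not reach the caller's threshold, which does not show that the protein was absent.

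The members and lists were chosen with earlier results of these data known. Members described singly were the 5 with the highest mean percentile over the 4 lists, those without any peak, those with a region of both antibodies in only 1 line, the 5 with most peaks, those with opposite differences, the stalk genes and RPSA. RPL11, RPL29, RPS2 and RPS26 and the pathway genes EEF1A1 and EEF2 were named after their values were seen. Some genes that these rules pick out are not reported here by name.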

Additional observations from a re-analysis of the deposited data

How the results depend on the processing

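Of 79 alternatives over 21 results, 50 kept the value, 28 moved it and 1 reversed it. A count was kept when it changed by at most 1.5 times. A median was kept when it stayed inside the 95% interval of the main median, taken from the ordered member values. Limiting each list to its 10000 strongest peaks left 13, 6, 13 and 5 members called (LNCaP BRG1, LNCaP SMARCC2, MR49F BRG1, MR49F SMARCC2) and 7, 3, 5 and 0 called at a listed start. It also left 2 members with more MR49F and 1 with more LNCaP peaks by both antibodies, and 2 regions in all 4 lists and 2 in MR49F only. A −log10 q of at least 5 left 21 members and 11 starts called in LNCaP SMARCC2, 1 member with more LNCaP peaks, 15 regions in all lists and 2 in LNCaP only. Joining by summits within 200 bp gave 12 regions in all lists and 2 in LNCaP only. A start window of 500 bp gave 9 members for LNCaP SMARCC2 and 26 for MR49F SMARCC2. With the span not extended, or with peaks nearest to a member only, 1 member had more LNCaP peaks. The median percentile at starts became 77.5, 50.9, 79.9 and 79.9 by width and 32.7 for MR49F BRG1 by fold. The median LNCaP SMARCC2 summit reversed to -492 bp over the 20 members with 1 listed start. The cause was not tested. Fewer peaks enter the stricter settings by construction. Use of a single listed start, of either gene end over all members and of peaks nearest to a member were chosen after seeing the data. Adding 7 genes with a final L or a ubiquitin-like fusion gave 66, 45, 75 and 69 of 83 genes.

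No paired analysis was possible because each line and antibody has 1 library, whose number only follows accession order. Without replicates, no difference between lines or antibodies can be set against a spread between libraries. List lengths differ, and the lists hold only peaks past the caller's threshold, so weak occupancy at an uncalled gene was not detectable here. Listed starts were used for 61 of 76 members.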

Other observations

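Several genes of the cytosolic ribosome lie outside the autosomal symbol rule and were read in the same way. The 4 genes on the X chromosome all had a BRG1 peak in both lines, a SMARCC2 peak in MR49F and none in LNCaP. RPS4X, of the small subunit, had 1, 0, 1 and 2 peaks for LNCaP BRG1, LNCaP SMARCC2, MR49F BRG1 and MR49F SMARCC2. RPL36A had 1, 0, 1 and 1, RPL39 had 1, 0, 1 and 2, and RPL10, of the large subunit, had 1, 0, 3 and 3. This is the pattern that 18 of the 76 autosomal members also had. Its share over all genes, on autosomes or on the X chromosome, was not counted, and LNCaP SMARCC2 is the shortest list.

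FAU, whose ribosomal protein is made as a fusion with a ubiquitin-like protein, had a single BRG1 peak in MR49F (−log10 q of 8.92) and no other. RPS27L, a paralog of RPS27, had 1 peak in every list, with a −log10 q of 16.0, 6.91, 15.8 and 21.2. RPL36AL had 1, 2, 1 and 1 peaks, with 7.92, 7.89, 17.7 and 19.1. RPL3L, the paralog of RPL3 known from striated muscle, had no LNCaP peak and 1 peak in each MR49F list (7.77 and 5.92). RPL39L had a LNCaP BRG1 peak only (9.07), and RPL10L, a gene of the testis, had none.

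Other housekeeping complexes were read in the same way. A peak in each list was present at 26 of 74 mitochondrial ribosomal protein genes (35.1%), 14 of 38 proteasome subunit genes (36.8%) and 6 of 34 complex I subunit genes (17.6%), against 39.8% of all genes. No peak was found at 6 (8.11%), 7 (18.4%) and 5 (14.7%) of them, against 26.0% of all genes. These counts have no test.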
